A study of Mus musculus with 4 samples.

Results

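A set of 73 genes was well above background on both arrays of SH-2251-treated Th2 cells and on neither array of control cells. They were found among 18344 genes that carry a RefSeq mRNA accession on the array, 1 probe per gene, the one with the highest mean log2 signal. Members were selected on the detection flags of the scanner software alone, which gave 75 genes, 0.409% of the genes, and Ccr10 and Gcnt1 were set aside. The opposite pattern, with the flag set in both control conditions and in none of the SH-2251 ones, was shown by 101 genes, while 11459 genes were well above background on all 4 arrays and 5270 on none. Only 4 of the 73 genes, Trpm6, Cubn, Map2 and Papln, stood at least 4-fold over the control side in both states and are called bright here. A further 9 were at least 2-fold over it in both states and are called intermediate, and the other 60 stayed under 2-fold in at least 1 state and are called borderline.

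The RNA came from splenic CD4 T cells of female C57BL/6J mice, sorted on an AutoMACS and driven towards the Th2 lineage. The control group was cultured without SH-2251, for 2 days on immobilized anti-TCR-β mAb with anti-CD28 mAb, 2.5 ng/ml of IL-2 and 10 ng/ml of IL-4, and then for 3 days with the same cytokines. The SH-2251 group had the same cultures with SH-2251, a small thioamide-related molecule, at 1 µM and then 1 mM by the labels. Cells of each group were then left unstimulated or were stimulated for 4 h with immobilized anti-TCR-β mAb, which gave 4 arrays, 1 per condition. The labels and the methods of the study differ on the dose and on the starting cells, which were naive CD4 T cells in the methods, so neither is settled here. With 1 array per condition there was no replicate check and no test, and precision is limited by the number of arrays.

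Th2 cells are the CD4 helper T cells whose cytokines, IL-4, IL-5 and IL-13, drive eosinophil-rich allergic inflammation. They arise when IL-4 acts on an activated T cell and the transcription factor Gata3 is induced, while genes of other lineages and of other tissues are largely kept silent. A microarray spot always gives some light, so a silent gene is not read as 0 but as a signal that cannot be told from its local background, and a fold over such a signal can only be given as a lower bound.

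Levels are log2 signals after subtraction of each array's 75th percentile, which lay between 499 and 614 intensity units. The floor of an array, its lowest signal with the detection flag set, lay between -4.74 and -4.65 on this scale, or 19.8 to 24.4 intensity units. A bound is the SH-2251 level minus the higher of the control array's floor and the probe's own control level. The technical SD beside a value is the scanner software's error estimate for the spot on the SH-2251 array and covers error within an array. On each array 56.0% to 56.7% of the probes had the flag set, all 4 arrays lay on 1 slide read in 1 scan, and no spot of the 73 genes was saturated or had an uneven local background. The 6 T cell markers checked, such as Cd3d and Cd4, and the 5 Th2 markers, Gata3, Il4, Il5, Il13 and Il4ra, were well above background on every array. Detection does not mean equal levels. Il5 was at 1.04 and 6.20 in control unstimulated and stimulated cells and at -2.82 and 3.19 with SH-2251. Il13 was at -1.49 and 3.28 against -2.81 and 2.72. Gata3 was at 5.39 and 5.87 against 5.22 and 5.83, Il4 at 4.69 and 8.25 against 4.59 and 8.02, and Il4ra at 7.31 and 6.29 against 7.20 and 6.33.

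The flag well above background is the strict one of the software, and a milder flag marks signals that are positive and significantly above the local background. By this milder flag 68 of the 73 genes had a signal on at least 1 control array, 67 in unstimulated and 61 in stimulated control cells. The exceptions were Map2, Papln, Ramp2, Soga3 and Mbd3l2. Of all genes not well above background, 53.4% were positive and significant on the control array of either state. The name genes detected only with SH-2251 therefore holds for 5 genes by the milder flag, and the set is described here by the strict flag that chose it.

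The promoters of the 4 bright genes are shown because these genes carry the strongest pattern of the set. Each run is RefSeq sequence on the strand of the gene (GRCm38.p6), with 250 bases before the start in lower case and 50 bases from the start on in capitals. Trpm6 lies at chr19:18749480-18749779 on the plus strand, Cubn at chr2:13491827-13492126 on the minus strand, Map2 at chr1:66175079-66175378 on the plus strand and Papln at chr12:83763384-83763683 on the plus strand.
Trpm6: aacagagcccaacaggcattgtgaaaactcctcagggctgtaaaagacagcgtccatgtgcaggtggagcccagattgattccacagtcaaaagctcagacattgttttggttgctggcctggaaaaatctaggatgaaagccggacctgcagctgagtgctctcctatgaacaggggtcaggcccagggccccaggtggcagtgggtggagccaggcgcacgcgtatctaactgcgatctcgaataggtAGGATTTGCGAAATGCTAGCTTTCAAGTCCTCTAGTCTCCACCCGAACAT
Cubn: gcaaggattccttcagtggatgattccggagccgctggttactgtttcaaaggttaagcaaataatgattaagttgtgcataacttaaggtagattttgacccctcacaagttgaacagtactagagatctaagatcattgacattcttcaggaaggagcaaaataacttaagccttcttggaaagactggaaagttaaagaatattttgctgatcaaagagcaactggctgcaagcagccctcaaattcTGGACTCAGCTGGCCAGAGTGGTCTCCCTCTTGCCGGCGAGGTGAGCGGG
Map2: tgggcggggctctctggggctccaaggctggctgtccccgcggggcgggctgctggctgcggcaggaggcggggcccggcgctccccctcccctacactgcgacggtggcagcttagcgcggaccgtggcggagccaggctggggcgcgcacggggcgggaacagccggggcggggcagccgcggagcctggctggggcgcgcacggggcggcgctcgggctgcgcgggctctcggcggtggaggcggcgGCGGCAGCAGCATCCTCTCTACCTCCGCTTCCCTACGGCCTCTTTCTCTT
Papln: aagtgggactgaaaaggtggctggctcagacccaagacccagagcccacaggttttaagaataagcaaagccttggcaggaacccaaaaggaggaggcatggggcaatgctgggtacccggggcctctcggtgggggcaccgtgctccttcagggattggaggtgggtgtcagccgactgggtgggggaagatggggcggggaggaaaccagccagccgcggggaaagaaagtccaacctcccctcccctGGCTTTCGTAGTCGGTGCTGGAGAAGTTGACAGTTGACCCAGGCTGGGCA
The GC content was 53.0% in the promoter of Trpm6, 44.3% in that of Cubn, 77.7% in that of Map2 and 61.0% in that of Papln. Letters of 2 motifs were searched on both strands, AAATCA, a core of sites bound by the repressor Gfi1, and AGGTCA, the half-site of many nuclear receptors. Neither was found in these 4 windows. Over the 48 genes of the set with a promoter in the table, AAATCA was found in 5 (10.4%), against 14.3% of 27025 promoters of the same length, and AGGTCA in 10 (20.8%), against 16.0%. These matches are a description of letters in the windows and of nothing bound there.

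The channel Trpm6 had the highest bound of the set in both states. Trpm6 is a magnesium-permeable cation channel fused to a kinase domain, best known for magnesium uptake in gut and kidney epithelium. Its level was -5.89 in control unstimulated cells, -4.52 in control stimulated cells, -0.33 in SH-2251 unstimulated cells and 1.42 in SH-2251 stimulated cells. In intensity units these were 9.49, 21.7, 488 and 1560. Both SH-2251 values were far above both control values, and the stimulated control signal lay just above the floor of its array, by 0.13. The bounds were at least 21.0-fold in unstimulated cells (4.39 on the log2 scale, technical SD 0.15) and at least 61.6-fold in stimulated cells (5.94, technical SD 0.14). In stimulated cells the bound is the difference from the control's own signal. Over the processing settings tried, the log2 bounds ran from 2.49 to 5.55 in unstimulated and from 3.84 to 5.99 in stimulated cells.

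Cubn, which encodes the endocytic receptor cubilin for intrinsic factor with vitamin B12 and for filtered proteins in the kidney, was the second of the bright genes. Its level was -5.69 and -5.26 in control unstimulated and stimulated cells, and -1.26 and -1.36 in SH-2251 unstimulated and stimulated cells. The control signals were both under the floor, and the SH-2251 signals differed by 0.10 from each other. The bounds were at least 11.0-fold (3.46, technical SD 0.15) in unstimulated and at least 9.79-fold (3.29, technical SD 0.15) in stimulated cells.

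Map2 encodes a protein that binds and stabilizes microtubules, mostly in the dendrites of neurons. Its level was -6.56 and -6.50 in control unstimulated and stimulated cells, and -1.58 and -1.70 with SH-2251. The control signals were not positive and significant, and the bounds were at least 8.82-fold (3.14, technical SD 0.15) and at least 7.77-fold (2.96, technical SD 0.15). Papln encodes papilin, a large glycoprotein of the extracellular matrix. Its level was -6.57 and -6.52 without and -2.36 and -2.42 with SH-2251, in unstimulated and stimulated cells respectively, and its bounds were at least 5.15-fold (2.37, technical SD 0.16) and at least 4.71-fold (2.24, technical SD 0.16). For Cubn, Map2 and Papln the pair of SH-2251 arrays lay close to each other, and for Trpm6 they lay 1.75 apart. With a model-based background correction and an offset (normexp), 1 gene, Trpm6, kept a bound of at least 4-fold in both states.

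**Figure D1:**
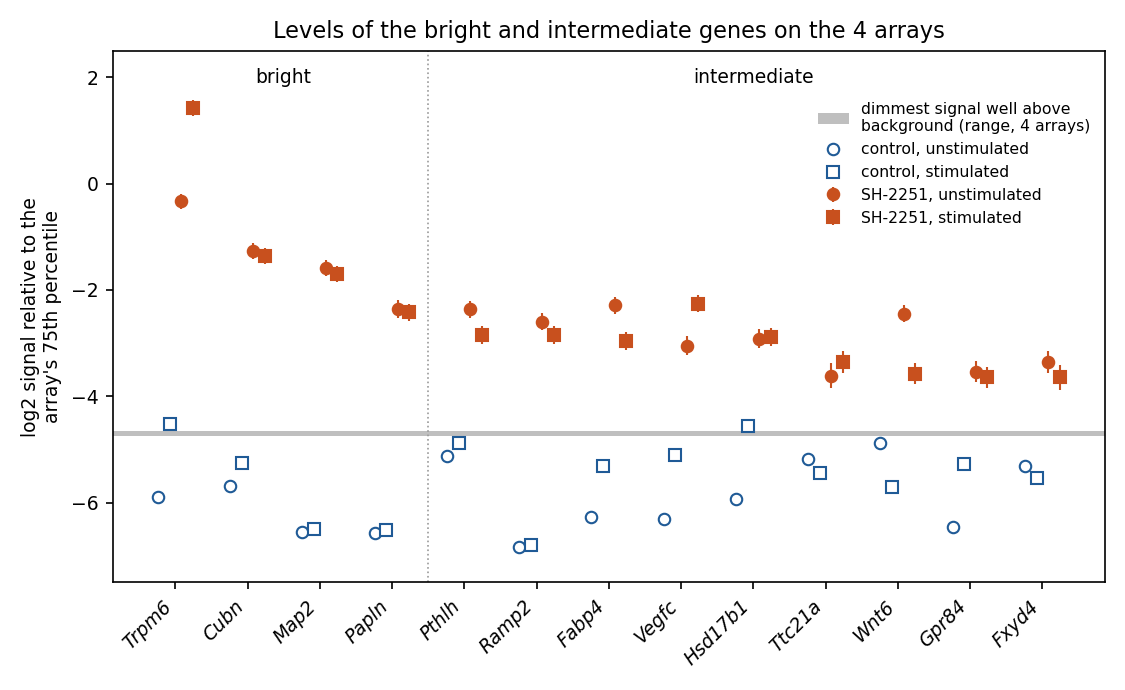
Level (vertical axis, log2 signal minus the array's 75th percentile) for the 4 bright and 9 intermediate genes (horizontal axis) on the 4 arrays. Open symbols are control, filled symbols SH-2251, circles unstimulated and squares stimulated cells, bars on the SH-2251 points are the technical SD, and the grey band is the range of the floors (-4.74 to -4.65). Every SH-2251 point lies above the band, and Trpm6 reaches 1.42 in stimulated cells.

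Of the 5 genes grouped as channels, pumps and transport, Trpm6 was bright, Fxyd4 intermediate and 3 borderline. The grouping by role was made after the genes of the set were known. Fxyd4, a small regulator of the sodium pump, was at -5.31 and -5.54 in control unstimulated and stimulated cells and at -3.36 and -3.64 with SH-2251, with bounds of at least 2.58-fold and at least 2.02-fold. Atp1b1, the beta subunit of the same pump, was borderline, at -4.84 and -4.76 against -3.96 and -3.74, with bounds of at least 1.70-fold and at least 1.89-fold. Cacng6, an accessory subunit of voltage-gated calcium channels, was at -4.60 and -5.09 in control and at -4.29 and -2.59 in SH-2251 cells. Its bound was at least 1.24-fold in unstimulated and at least 4.18-fold in stimulated cells, so it passed 4-fold in stimulated cells alone. Atp8b4, a phospholipid flippase, had bounds of 0.35 and 0.40 on the log2 scale, and its other probe was well above background on the unstimulated arrays of both control and SH-2251 cells. Over all 227 genes of the ion channel list, 70 to 78 were well above background on each array. Of the list, 2 (0.881%) were in the set, Trpm6 and Cacng6, where the set holds 0.398% of all genes. Among the other gene family lists, only those of olfactory receptors and of cadherins held a gene of the set. The rest held none, such as solute carriers (0 of 355) and zinc finger proteins (0 of 370), and nothing is read from these shares.

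Receptors or co-receptors are encoded by 10 of the genes, and besides Cubn 2 of them were intermediate. Ramp2, the partner protein that turns the calcitonin receptor-like receptor into an adrenomedullin receptor, was at -6.84 and -6.80 in control unstimulated and stimulated cells, the lowest part of the scale. It was at -2.60 and -2.84 with SH-2251, and its bounds were at least 4.37-fold (2.13, technical SD 0.16) and at least 3.51-fold (1.81, technical SD 0.17). Gpr84, a receptor for medium-chain fatty acids known from myeloid cells, was at -6.45 and -5.27 in control and at -3.54 and -3.64 in SH-2251 cells. Its bounds were at least 2.27-fold and at least 2.02-fold, the latter just over the limit that separates intermediate from borderline genes.

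The other 7 receptor genes were borderline. Gfra1, the co-receptor that binds the neurotrophic factor GDNF, was at -6.57 and -5.21 in control and at -3.14 and -4.21 in SH-2251 cells. Its bounds were at least 3.00-fold in unstimulated and at least 1.36-fold in stimulated cells. A second Gfra1 probe did not show the pattern. That probe was below background on all 4 arrays, at -4.85 and -4.96 in control and lower, at -6.97 and -5.12, in SH-2251 cells. Kiss1r, the kisspeptin receptor, had its larger bound in stimulated cells, at least 2.39-fold against at least 1.77-fold. Acvr2a, a receptor for activins, had its larger bound in unstimulated cells, at least 2.22-fold against at least 1.71-fold. Tgfbr3 and Cd109, both co-receptors that bind TGF-β, and the sorting receptor Sort1 had bounds between 0.22 and 0.64 on the log2 scale. Olfr1417, an olfactory receptor, had the lowest stimulated bound above 0 in the set (0.02). It was the single one among 1022 olfactory and vomeronasal receptors (0.0978%), where the set holds 0.398% of all genes. Of these receptors 129 to 170 were well above background on each array.

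Ligands and other secreted or matrix proteins are encoded by 13 of the genes, of which Papln was bright and 3 were intermediate. The role groups were not counted over all genes of the array, so their sizes are no result about the set. Pthlh encodes parathyroid hormone-related protein, which acts on bone and on the growth plate. It was at -5.11 and -4.88 in control unstimulated and stimulated cells and at -2.37 and -2.84 with SH-2251, with bounds of at least 5.13-fold (2.36, technical SD 0.16) and at least 3.51-fold (1.81, technical SD 0.17). A second Pthlh probe showed the same pattern, at -6.18 and -5.12 in control and at -3.15 and -3.20 in SH-2251 cells.

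Vegfc, a growth factor for lymphatic vessels, was the intermediate gene with the larger bound in stimulated cells among the ligands. Its level was -6.31 and -5.10 in control and at -3.05 and -2.25 in SH-2251 unstimulated and stimulated cells, and its bounds were at least 3.20-fold (1.68, technical SD 0.18) and at least 5.28-fold (2.40, technical SD 0.15). Wnt6, a secreted Wnt ligand, was the reverse. It was at -4.87 and -5.71 in control and at -2.45 and -3.57 in SH-2251 cells, with bounds of at least 4.83-fold (2.27, technical SD 0.16) and at least 2.11-fold (1.08, technical SD 0.20). Wnt10a, the next protein-coding gene to Wnt6 in the genome, was also in the set but borderline, with bounds of at least 1.71-fold and at least 1.79-fold. The single other pair of neighbours among 71 genes of the set mapped, on 19 chromosomes, was Cxxc5 and Psd2.

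The remaining 8 secreted proteins were borderline. Chit1, a chitin-degrading enzyme of macrophages, was at -5.43 and -5.04 in control unstimulated and stimulated cells and at -4.13 and -2.02 with SH-2251. Its bound in stimulated cells, at least 6.23-fold (2.64, technical SD 0.15), was the fourth highest of the set in that state, whereas in unstimulated cells it was at least 1.51-fold. Jag1, a Notch ligand, was at -6.98 and -5.70 in control and at -3.91 and -3.79 in SH-2251 cells, with bounds of at least 1.76-fold and at least 1.82-fold. A second Jag1 probe was below background on all 4 arrays, at -6.69 and -5.04 in control and at -5.83 and -6.89 in SH-2251 cells. Ltf, the iron-binding lactoferrin of neutrophil granules and milk, had bounds of at least 1.83-fold and at least 1.71-fold, and its second probe showed the same flags. Ear1, an eosinophil-associated ribonuclease that belongs to a family of near-identical genes and may share signal with them, had bounds of at least 2.41-fold and at least 1.59-fold. Gas6 (a ligand of the TAM receptors), Pltp (phospholipid transfer protein), Klk1b16 (a kallikrein with close paralogs) and Fam20c (a kinase of secreted proteins) had bounds between 0.15 and 0.41 on the log2 scale.

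Of 7 genes of lipid, steroid and other metabolism, Fabp4 and Hsd17b1 were intermediate. Fabp4, a fatty acid-binding protein of fat cells and macrophages, was at -6.27 and -5.31 in control and at -2.29 and -2.96 in SH-2251 unstimulated and stimulated cells. Its bounds were at least 5.41-fold (2.44, technical SD 0.16) and at least 3.23-fold (1.69, technical SD 0.17), and of its other probes 1 had the same pattern and 1 was below background on all 4 arrays. Hsd17b1 makes estradiol from estrone. It was at -5.93 and -4.56 in control and at -2.92 and -2.89 in SH-2251 cells, with bounds of at least 3.49-fold and at least 3.18-fold, the control stimulated signal lying 0.10 above the floor.

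Plpp3, a phosphatase that breaks down lysophosphatidic acid outside the cell, was at -4.59 and -5.29 in control and at -2.38 and -3.78 in SH-2251 cells. It passed 4-fold in unstimulated cells, at least 4.61-fold, but not 2-fold in stimulated cells, at least 1.84-fold. Kynu, a tryptophan-degrading enzyme, was at -5.86 and -5.09 in control and at -3.73 and -2.97 in SH-2251 cells, and missed the intermediate class by an unstimulated bound of at least 1.99-fold, with at least 3.22-fold in stimulated cells. Sardh, a mitochondrial enzyme of glycine metabolism, had at least 2.85-fold and at least 1.16-fold, from levels of -3.21 and -4.45 with SH-2251. The bounds of G6pd2, a copy of the glucose-6-phosphate dehydrogenase gene that may share signal with it, and of Gmpr, a purine enzyme, lay between 0.39 and 0.68 on the log2 scale.

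**Figure D2:**
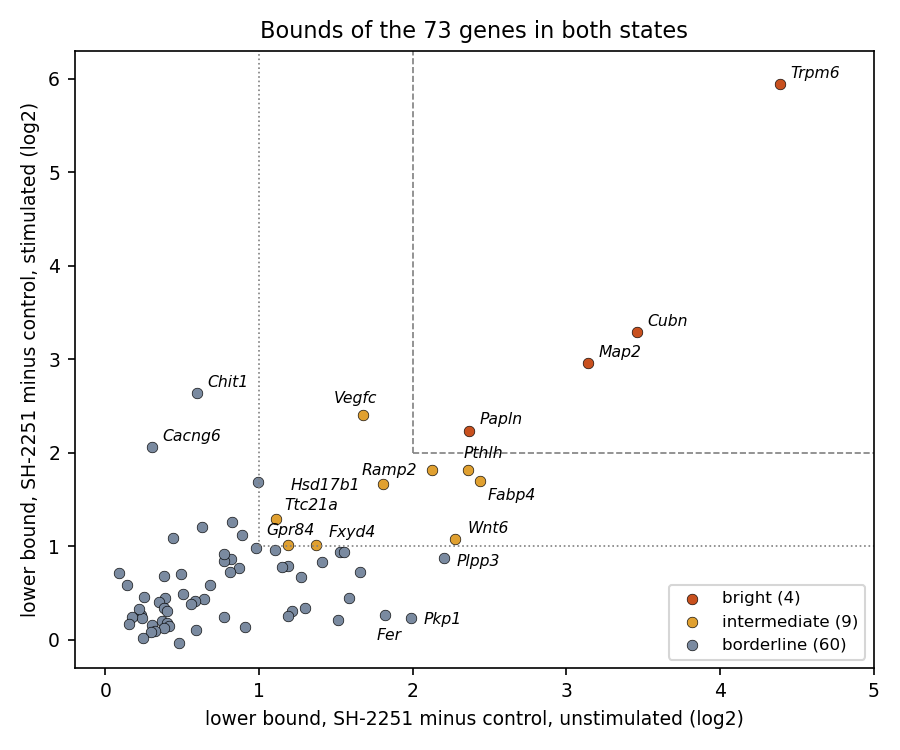
Lower bound of SH-2251 minus control on the log2 scale in unstimulated (horizontal axis) and stimulated cells (vertical axis), 1 point per gene, coloured by class. Dotted lines mark 2-fold and dashed lines 4-fold in both states. The 4 bright genes lie at the upper right, led by Trpm6 (4.39 and 5.94), most of the 60 borderline genes crowd near the origin, and Chit1, Cacng6, Plpp3, Pkp1 and Fer stand out in 1 state.

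Among 7 genes of the cytoskeleton, cilia and adhesion, Map2 was bright and Ttc21a intermediate. Ttc21a belongs to the machinery that carries cargo in cilia, and was at -5.18 and -5.44 in control and at -3.61 and -3.36 in SH-2251 cells, with bounds of at least 2.16-fold and at least 2.46-fold. Pkp1, a desmosomal plaque protein of the skin, was at -5.23 and -6.57 in control and at -2.73 and -4.42 in SH-2251 cells, and its bound was at least 3.98-fold in unstimulated and at least 1.18-fold in stimulated cells. Dync2li1, a part of the dynein motor of cilia, and Hoatz, a gene linked to motile cilia, likewise passed 2-fold in unstimulated cells alone, at least 2.28-fold and at least 2.32-fold. Tspan8, a tetraspanin of epithelial cells, passed it in stimulated cells alone, at least 2.31-fold. Cdh23, a cadherin of the hair cells of the inner ear, had bounds of 0.33 and 0.10. It was the single one of 94 cadherins, protocadherins and claudins (1.06%), where the set holds 0.398% of all genes. Of that list 22 to 25 genes were well above background on each array, and nothing is read from 1 gene.

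The 9 genes of kinases and signalling were borderline. Fer, a cytoplasmic tyrosine kinase, had the largest bound of them, at least 3.53-fold in unstimulated cells, from -5.00 in control to -2.91 with SH-2251. In stimulated cells its levels were -6.19 and -4.38 and the bound at least 1.21-fold. Psd2, an exchange factor for the small GTPase Arf6, was close to 2-fold in both states, at least 1.97-fold in each. The kinase Map3k19 had at least 2.15-fold and at least 1.94-fold, and Rassf6, of the Ras association domain family, had at least 1.85-fold and at least 2.18-fold. Snx24, a sorting nexin, had at least 2.46-fold in unstimulated cells alone. The kinase Map3k15, the Akt phosphatase Phlpp1 and Pag1, an adaptor that recruits the inhibitory kinase Csk in T cells, had bounds between 0.14 and 0.59 on the log2 scale.

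All 8 genes of transcription, chromatin and nucleic acids were borderline as well. H1f10, a linker histone, had at least 2.66-fold in unstimulated and at least 1.78-fold in stimulated cells, and Mbd3l2, related to a methyl-CpG binding protein, had at least 1.35-fold and at least 2.13-fold. Cxxc5, Pir, Ighmbp2, Carf and the RNA-binding protein Bicc1 had bounds between 0.09 and 0.77 on the log2 scale. Eomes, the T-box factor of CD8 and NK cells, was at -6.47 and -5.38 in control and at -4.17 and -4.27 in SH-2251 cells, with bounds of at least 1.47-fold and at least 1.30-fold. Of the 7 other CD8 and NK markers, 5 were well above background on each array, with Klrb1c and Ncr1 below it on all 4. Their summed linear level without Eomes was 66.9 in unstimulated and 100 in stimulated control cells, against 21.1 and 33.4 with SH-2251, most of it from Gzma (log2 levels 6.01, 6.57, 4.23 and 4.85 in that order). Cd8a, a defining marker of CD8 T cells, went the other way, with log2 levels of -3.53 and -2.82 in control and of -2.07 and -1.85 in SH-2251 cells. The part of such cells in the level of Eomes was not tested, and in RNA of a whole culture more cells of a type and more RNA per cell cannot be told apart.

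For 14 genes no role group was set. Rnft2, Lhfp, Txlnb and Fkbp9, a prolyl isomerase of the endoplasmic reticulum, passed 2-fold in unstimulated cells alone, with bounds between 2.28-fold and 3.16-fold. Soga3, Tmem144, Susd2, Zmynd15, Mmel1, Tmem220, Frmpd1, Tdrp and the accessions NM_001167581 and NM_001123394, which the table used did not name, stayed under 2-fold in both states. Tdrp had a stimulated bound of -0.03, as its signal lay under the floor of the control array, so no fold is given for it there.

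Map2 is also a neuronal marker, and of the 8 other neuronal markers 3 or 4 were well above background on each array. Without Map2, which the rule chose, their summed linear level was 0.504 in unstimulated and 0.639 in stimulated control cells, against 0.505 and 0.571 with SH-2251, while Nefl and Nefm were below background on all 4. With Map2 the sums were 0.515 and 0.650 against 0.839 and 0.879, so the higher sums with SH-2251 were those of Map2 itself. The other markers went both ways. Syt1 was at -5.78 and -6.25 in control unstimulated and stimulated cells and higher, at -3.86 and -4.50, with SH-2251. Tubb3, at a higher level, was at -1.71 and -1.51 in control and lower, at -1.94 and -1.83, with SH-2251. Of 12 myeloid and dendritic markers, 5 were well above background on each array, with Lyz2, Itgam, Itgax, S100a8 and S100a9 among the 7 below it on all 4. Their summed linear level was 2.96 in unstimulated and 3.21 in stimulated control cells, against 2.72 and 3.25 with SH-2251. Of 10 B cell markers, 6 were well above background on each array, with Pax5, Blk, Ebf1 and Fcrla below it on all 4, and their summed linear level was 4.79 in unstimulated and 3.86 in stimulated control cells, against 5.48 and 5.91 with SH-2251. The part of other cells in the levels of the set was not tested. No gene of the set was among the 12 myeloid, 10 B cell, 7 mast cell, 7 red cell, 9 stromal or 7 epithelial markers on the array. The set holds 0.398% of all genes, so lists this short could hardly hold any of it, and nothing is read from this. Gpr84, Chit1, Ltf, Ear1 and Fabp4, described above by their myeloid, macrophage, neutrophil or eosinophil links, were on none of these lists.

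Most of the set lay close to the detection limit on the SH-2251 arrays as well. The median signal was 0.75 above the floor on the log2 scale in unstimulated and 0.79 in stimulated cells, against 5.51 and 5.54 over the 11713 genes well above background on both SH-2251 arrays. In unstimulated cells 44 of the 73 genes (60.3%) were under 2-fold above the floor, and in stimulated cells 48 (65.8%), against 6.38% and 6.37% of the 11713 genes. The flags that set this limit also chose the genes, so these counts are a description only. The median bound was 0.81 in unstimulated and 0.68 in stimulated cells, with 29 and 20 genes at 2-fold or more and 9 and 7 at 4-fold or more. The bound was smaller than its own technical SD for 9 genes in unstimulated and 20 in stimulated cells, against a median technical SD of 0.24 in both. In 15 and 8 genes the control signal itself lay above the floor without being called well above background. For these the bound is the difference from the control's own signal.

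**Figure D3:**
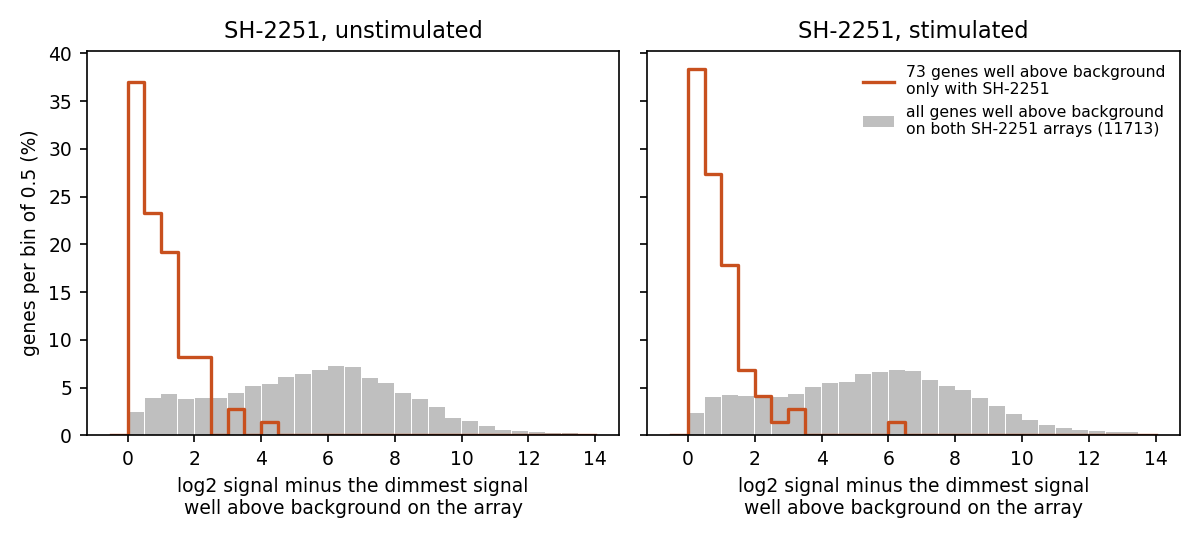
Distribution of the log2 signal minus the floor of the array (horizontal axis, bins of 0.5) on the SH-2251 arrays, as a share of genes (vertical axis, %). Grey bars are the 11713 genes well above background on both SH-2251 arrays and the line is the set of 73, whose medians (0.75 and 0.79) lie at the left end.

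Members just inside the rule had SH-2251 signals near the floor, and genes just outside it had 1 control signal there. Olfr1417, Tmem220 and Tdrp had the lowest mean SH-2251 signals of the set. Olfr1417 was at -4.74 and -4.77 in control and at -4.48 and -4.63 in SH-2251 unstimulated and stimulated cells. Tmem220 was at -4.81 and -5.98 against -4.57 and -4.49, and Tdrp at -6.26 and -6.97 against -4.25 and -4.68. Just outside, with 1 control array well above background and nearest to its floor, were Sct, Wdr27 and the accession NM_030033. Sct, which encodes the hormone secretin, was at -4.99 and -4.65 in control and at -4.17 and -4.17 in SH-2251 cells, with its stimulated control signal at the floor itself. For NM_030033 the unstimulated control signal was 0.03 and for Wdr27 the stimulated control signal 0.08 above the floor. In all, 111 genes were well above background on both SH-2251 arrays and the control unstimulated array alone, and 68 on both SH-2251 arrays and the control stimulated array alone.

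Other probes existed for 17 of the 73 genes, 24 in all. The same flags were shown by 3 of them, for Pthlh, Fabp4 and Ltf, and 17 were below background on all 4 arrays. Another 3 were well above background on the SH-2251 unstimulated array alone, 2 of Tmem144 and 1 of Fer. One of the Tmem144 probes was at -2.10 in SH-2251 unstimulated and -5.85 in SH-2251 stimulated cells, while the probe that represented the gene differed by 0.27. The last was the Atp8b4 probe above. None of the 4 bright genes had another probe.

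The rule did not use the difference between the SH-2251 arrays, but it required the flag on both, so a gene near the floor on one could hardly be 2-fold lower on the other. As 44 genes of the set were that close to the floor in unstimulated and 48 in stimulated cells, the shares below are given side by side as a description, with nothing read from them about the set. Stimulated over unstimulated, 3 of the 73 genes (4.11%) were at least 2-fold higher, against 6.69% of the 11713 genes well above background on both SH-2251 arrays, and 6 (8.22%) were at least 2-fold lower, against 6.74%. The median change was -0.10 for the set and -0.05 for the 11713 genes, with 28 of the set above and 45 below 0. The difference was larger than 2 technical SDs in 20 genes.

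The 3 higher genes were Chit1 (2.11, technical SD 0.30, or 4.32-fold), Trpm6 (1.75, technical SD 0.20, or 3.37-fold) and Cacng6 (1.70, technical SD 0.32, or 3.26-fold). For Trpm6 the control signal was also higher in stimulated than in unstimulated cells (-4.52 against -5.89), but neither control value was well above background. The next higher were Vegfc (0.79, technical SD 0.23) and Kynu (0.76, technical SD 0.27), which stayed under 2-fold. The lower genes were Pkp1 (-1.68, technical SD 0.34), Fer (-1.48, technical SD 0.32), Plpp3 (-1.39, technical SD 0.27), Sardh (-1.23, technical SD 0.33), Wnt6 (-1.12, technical SD 0.26) and Gfra1 (-1.07, technical SD 0.31). These folds ran from 2.10 for Gfra1 to 3.21 for Pkp1. With the normexp correction, fitted without spots of uneven background, 2 genes of the set were at least 2-fold higher and 0 at least 2-fold lower. Of the bright genes, Cubn, Map2 and Papln differed between the states by less than 1 technical SD (-0.10, -0.11 and -0.06, technical SDs 0.21, 0.21 and 0.23). Bounds of at least 2-fold were reached in unstimulated cells alone by 16 genes, in stimulated cells alone by 7 and in neither state by 37.

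**Figure D4:**
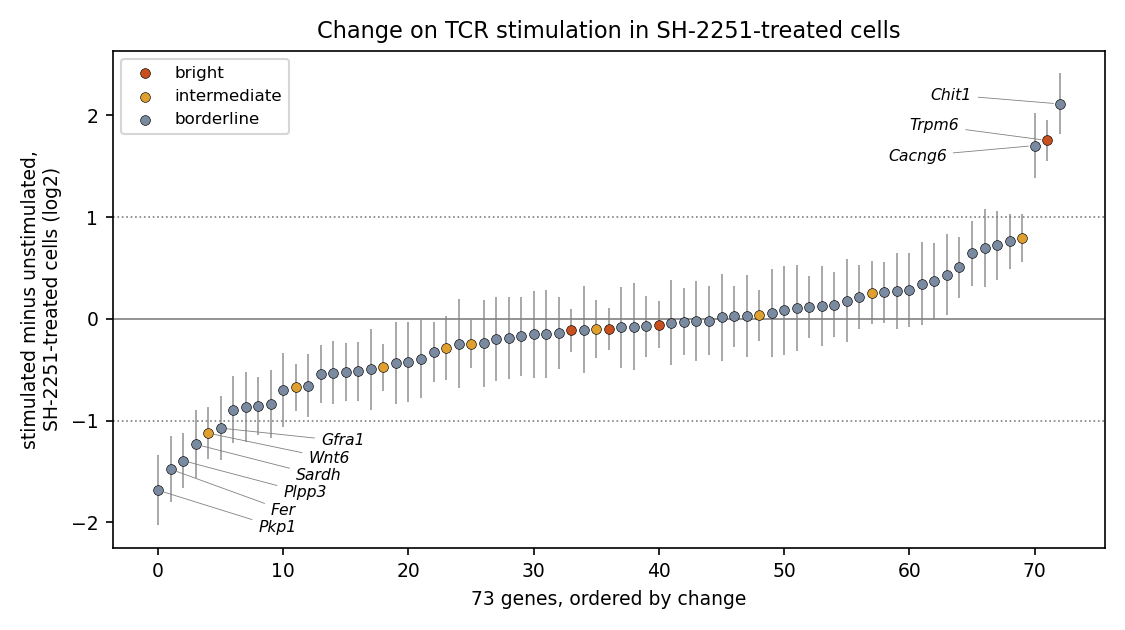
Stimulated minus unstimulated log2 signal in SH-2251-treated cells (vertical axis) for the 73 genes in rising order (horizontal axis), coloured by class, with the technical SD of the difference as bars and dotted lines at 2-fold. Chit1, Trpm6 and Cacng6 lie above the upper line, 6 genes from Gfra1 (-1.07) to Pkp1 (-1.68) below the lower one, and the rest between them.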

How the data were processed

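Gene expression was measured on 4 single-dye Agilent Whole Mouse 44K arrays, 1 per condition. The authors deposited the intensities of the scanner software (Agilent Feature Extraction 10.7, file header 10.7.3.1), already corrected for background, with the other columns used being the flags for detection, saturation and outliers. The authors also deposited log2 values, normalized per their methods with the Subio Platform. Here 99.6% to 99.7% of these lay within 0.01 of the log2 intensity minus the 75th percentile of the array (column medians -3.78 to -3.70), so their scale, centring and direction are known.

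Control spots and outlier spots (77 to 106 per array) were left out, spots of a probe were averaged, and the 75th percentile of each array was subtracted on the log2 scale. Of 27006 probes with an NM_ accession (of 41174), 26630 (98.6%) were named through a RefSeq table for GRCm38.p6. That build was used for names, neighbours and promoters only, since the array was designed on another build. The members, lists and classes were chosen with earlier results of these data known. Named by rule were the bright genes, genes on a list, the 5 largest changes between the SH-2251 arrays in each direction, the 3 lowest SH-2251 signals and the 3 genes nearest outside the rule. Others were grouped and named after their values were seen, and 1 gene of the set is counted but not reported by name here. The arrays shared a slide and a scan. With 1 array per condition, differences of culture, RNA preparation, labelling or position on the slide cannot be told apart from the condition.

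Alternatives covered scaling, background correction, floor, detection, probe choice, outlier spots and fold limits. The normexp correction used median spot and background signals. A gene name column, planned as an alternative source of names, was not used here. The code for the selection and the bounds was run on simulated arrays with planted flags and levels. As the flags were set by hand there, that run checks the code alone and not how flags behave near the floor. Python 3.11.15 with numpy 2.4.6, pandas 2.3.3 and matplotlib 3.10.9 did all but the normexp correction, for which limma 3.58.1 ran in R 4.3.3.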

Additional observations from a re-analysis of the deposited data

Results flagged for a closer look

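The same flags were also set in probes outside the counts above. Of 14168 probes without an NM_ accession, which the selection did not use, 50 (0.353%) were well above background on both SH-2251 arrays and on neither control array, a share close to the 0.409% of genes with an NM_ accession, so the count is not a result about these probes. Of these, 4 had bounds of at least 2-fold in both states and 1 of at least 4-fold. That probe carries the accession AK159977 and was at -4.94 and -4.63 in control unstimulated and stimulated cells and at -1.42 and -0.59 with SH-2251, with bounds of at least 9.86-fold and at least 16.4-fold.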

How the results depend on the processing

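The set held the same 73 genes under every scaling, floor and background correction tried, since these do not alter the flags. Subtracting each array's median, quantile normalization, the authors' log2 values and keeping outlier spots left 4 bright genes. Subtracting the median and quantile normalization each gave 12 intermediate and 57 borderline genes. The authors' values and keeping outlier spots left 9 and 60. A floor at the first percentile of signals well above background gave 5 intermediate genes. Without a floor there were 17 bright, 23 intermediate and 33 borderline genes, with median bounds of 1.41 in unstimulated and 1.61 in stimulated cells. The normexp correction with an offset of 50 gave 1 bright and 3 intermediate genes, median bounds of 1.24 and 0.14, and 1 gene higher and 40 lower after stimulation. Its fitted mean background was -152 intensity units on the SH-2251 unstimulated array and 7.36 to 8.23 on the others. Without 12 spots of uneven background it was 7.42 there, and this refit, chosen after seeing the data, gave 1 bright and 2 intermediate genes, median bounds of 0.29 and 0.14, and 0 genes lower. Asking that control signals were also not positive and significant left 5 genes. Setting bright from 2-fold gave 13 genes and from 8-fold 2. A limit of 1.5-fold gave 8 genes higher and 13 lower after stimulation, and a limit of 3-fold gave 1 lower. Counting every NM_ probe on its own gave 107, asking that no probe of the gene was above background on a control array gave 72, and using the accession as the gene, added later, gave 77. No direction reversed in these settings. The cause of these differences was not tested. No paired analysis was possible because each condition has 1 array. Signal over background limits the 60 borderline genes, whose median bound was 0.61 in unstimulated and 0.44 in stimulated cells.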
